A study of Rattus norvegicus with 24 samples.

Results

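The genes described here carry glucose into lactate and respond to oxygen. They are the glucose transporters, the glycolytic enzymes, lactate dehydrogenases, pyruvate dehydrogenase kinases, monocarboxylate transporters and genes of the hypoxia response. They were chosen by symbol from a list of 34, of which 33 were among the 17055 genes of the count tables. Egln1 is not analysed here. Of the 33, 30 passed the filter on low counts and were tested among 9994 genes. Tpi1 with 40 counts summed over all libraries, Eno2 with 106 and Pdk4 with 1 did not pass it. The list was proposed under a name that includes pyruvate kinases, but it holds none, so Pkm is described as a gene beside the list.

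The cells were rat PC12 cells at passages 18 to 20, which come from a tumour of adrenal chromaffin cells. The α1ACT line stably expressed α1ACT, the carboxy-terminal fragment made from the calcium channel gene CACNA1A, from pcDNA3, and the vector line carried pcDNA3 alone. By the labels both lines were harvested at 4 times, 6 h, 24 h, 3 d and 10 d, giving 8 groups of 3 libraries, all grown in the same serum-containing medium. The start of those times and whether a line is a single clone are not stated, and a difference between 2 lines cannot be told apart from any other difference between those cell populations.

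Glycolysis splits glucose into pyruvate in the cytosol. Lactate dehydrogenase turns pyruvate into lactate, which leaves the cell through monocarboxylate transporters. Pyruvate dehydrogenase kinases limit the use of pyruvate in the mitochondria by switching pyruvate dehydrogenase off. Under low oxygen the prolyl hydroxylases of the Egln family stop marking the HIF alpha subunits for destruction, and HIF then binds short DNA elements and raises many of these genes. Their RNA also responds to growth factors, nutrients and culture density, and chromaffin cells and PC12 cells are classical models of oxygen sensing.

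The labels and the names of the deposited tables disagree, and this bears on every comparison. The name gave another group for 18 of the 24 libraries and another line for 12, with the same replicate number in all 24. By the titles P stands for the vector line and Q11 for α1ACT. Libraries labelled vector at 6 h, 24 h, 3 d and 10 d carry names for P 6 h, P 3 d, Q11 6 h and Q11 3 d. Libraries labelled α1ACT at the same times carry names for P 24 h, P 10 d, Q11 24 h and Q11 10 d. A labelled difference between lines at 6 h is therefore, by name, P at 24 h against P at 6 h. At 24 h it is P at 10 d against P at 3 d, at 3 d it is Q11 at 24 h against Q11 at 6 h, and at 10 d it is Q11 at 10 d against Q11 at 3 d. Over all tested genes the closest groups were the 6 h and 3 d groups of the labelled α1ACT line, with a root mean square difference of 0.185 in log2 CPM. The labelled vector 6 h and 3 d groups stood 0.194 apart, the α1ACT 24 h and 10 d groups 0.215 and the vector 24 h and 10 d groups 0.222, while the next pair stood 0.369 apart. By the names each of these close pairs is Q11 and P at the same time. Groups below are those of the labels unless a sentence says that it goes by file names.

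Counts on genes ranged from 8679560 to 14486248 per library, which puts the floor of 3 counts at 0.207 to 0.346 CPM (counts scaled to equal library size), for counting error only. CPM values are adjusted with TMM factors and not for transcript length, so levels are compared between groups and not between genes. The 9 chromaffin markers counted here summed to 18633 to 28611 CPM. At 24 h and 10 d they summed to 24613 to 28611 CPM in α1ACT, against 18633 to 21408 CPM in vector. At 6 h and 3 d they summed to 19838 to 24718 CPM in α1ACT and 19892 to 22257 CPM in vector. Single chromaffin markers went both ways: at 10 d Th and Ddc were higher in α1ACT, and Gata3 and Phox2a lower. Fibroblast markers summed to at most 0.587 CPM, with 3 to 5 of 5 at 0 in every group. Immune markers summed to at most 3.62 CPM with 1 or 2 of 4 at 0, and Schwann cell or glial markers to at most 15.9 CPM with 1 to 3 of 5 at 0. The 4 epithelial markers, led by Krt8 and Krt18, also moved with the groups. They summed to 652 to 734 CPM in α1ACT at 24 h and 10 d, against 476 to 498 CPM in vector. At 6 h and 3 d they summed to 920.1 to 1161 CPM in α1ACT and 1255 to 1798 CPM in vector. Reads assigned to no feature of the annotation were 51.1% to 52.9% in α1ACT at 24 h and 10 d, against 50.0% to 51.2% in vector. The part of these markers and reads in the differences below was not tested. Rat Cacna1a stood at 10.1 to 18.9 CPM in α1ACT and 13 to 20.9 CPM in vector libraries, and how far reads of the construct fall on it is not given in the sources used here. In bulk RNA, fewer cells with a transcript and less RNA per cell cannot be told apart.

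Genes of the list separated the labelled lines most at 24 h and 10 d, when most glycolytic enzymes were higher in α1ACT than in vector. Tests are edgeR's quasi-likelihood test in 1 fit of all 24 libraries, with Benjamini-Hochberg adjusted p over the 9994 genes and a threshold of 0.05, and differences are log2 of α1ACT over vector with their standard errors. At 10 d, 21 of 30 genes were higher in α1ACT and 4 lower, where 29.5% and 29.4% of all tested genes were. At 24 h, 17 were higher and 6 lower, beside 26.6% and 28.8% of all genes. At 6 h, 11 were higher and 4 lower, beside 20.5% and 21.2% of all genes. At 3 d, 9 were higher and 7 lower, beside 19.9% and 19.4%. The median difference over the 30 genes was 0.60 at 10 d, 0.34 at 24 h, 0.10 at 6 h and 0.07 at 3 d, against a median of 0.01, -0.02, 0.00 and 0.01 over all tested genes.

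Every one of the 30 tested genes differed among the 8 groups, as did 89.5% of all tested genes. That test does not depend on which name a whole group carries. The smallest p went to Ddit4 (1.58e-18), Pdk3 (6.35e-18) and Pgk1 (1.48e-16), all adjusted. For 25 of the 30 the difference between the lines itself differed between labelled times, beside 57.7% of all genes. Slc2a3, Hk2, Gapdh, Ldhb and Pfkfb3 did not pass that test, with adjusted p of 0.182, 0.562, 0.118, 0.327 and 0.101. Averaged over the 4 times, 22 genes were higher in α1ACT and 5 lower, beside 33.6% and 32.7% of all genes.

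**Figure D1:**
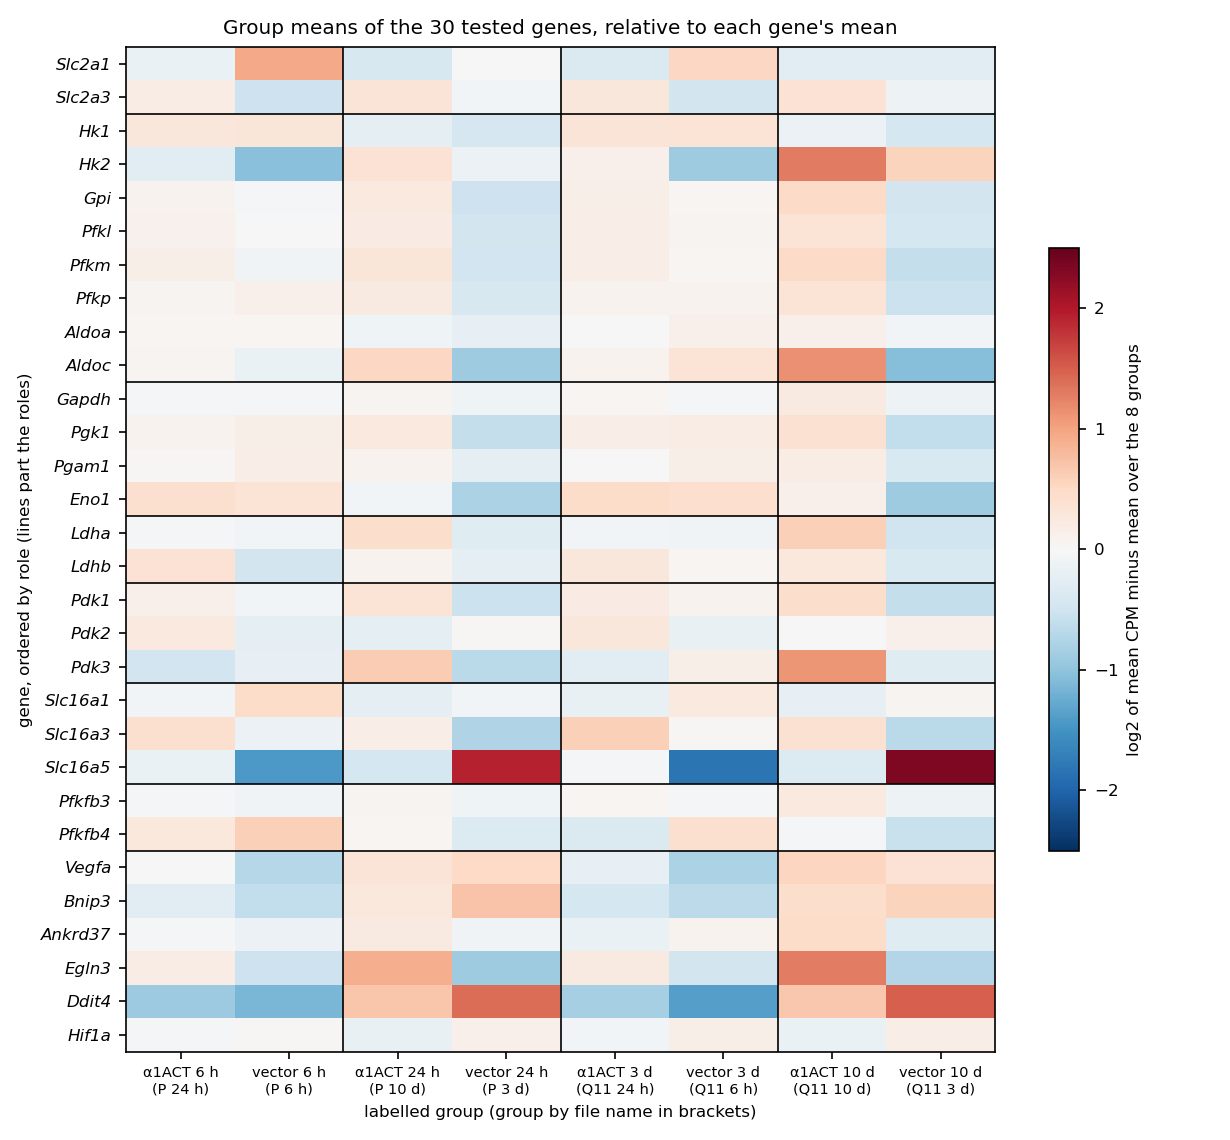
Group means of the 30 tested genes (rows, by role) in the 8 labelled groups (columns, file-name groups in brackets), as log2 of the mean CPM minus the gene's mean over groups. Most rows from Gpi to Pdk1 part between the lines mainly at 24 h and 10 d, with α1ACT the higher, while Slc16a5 and Ddit4 are highest in vector at those times.

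Promoters of 5 genes are printed because these genes mark both directions of the differences at 24 h. Ldha, Pdk3 and Aldoc were higher in α1ACT, and Bnip3 and Ddit4 were lower. Each sequence is the 250 bases before the gene's start on the gene's strand, from RefSeq on build GRCr8, while the counts were made on rn5. Capitals mark the core of the HIF-binding element, searched as ACGTG or GCGTG on both strands (CACGT or CACGC on the printed one). A CACGTG run holds a match on each strand and was counted for both.
Ldha (chr1:106507842-106508091, plus strand): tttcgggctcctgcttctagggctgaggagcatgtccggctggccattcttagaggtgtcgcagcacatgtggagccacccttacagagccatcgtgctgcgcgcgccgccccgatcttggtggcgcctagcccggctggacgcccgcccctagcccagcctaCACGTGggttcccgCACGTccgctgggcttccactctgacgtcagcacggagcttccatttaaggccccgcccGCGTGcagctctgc
Pdk3 (chrX:62547372-62547621, minus strand): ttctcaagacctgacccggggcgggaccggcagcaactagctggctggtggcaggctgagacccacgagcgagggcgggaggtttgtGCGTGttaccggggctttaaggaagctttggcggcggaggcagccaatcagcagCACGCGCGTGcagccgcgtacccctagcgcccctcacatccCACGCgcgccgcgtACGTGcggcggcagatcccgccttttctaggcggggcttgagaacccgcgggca
Aldoc (chr10:63715294-63715543, plus strand): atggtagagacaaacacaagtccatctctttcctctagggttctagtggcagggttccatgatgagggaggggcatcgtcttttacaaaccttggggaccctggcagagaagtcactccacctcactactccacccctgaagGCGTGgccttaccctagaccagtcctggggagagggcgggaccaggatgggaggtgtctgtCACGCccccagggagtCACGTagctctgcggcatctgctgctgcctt
Bnip3 (chr1:203154963-203155212, minus strand): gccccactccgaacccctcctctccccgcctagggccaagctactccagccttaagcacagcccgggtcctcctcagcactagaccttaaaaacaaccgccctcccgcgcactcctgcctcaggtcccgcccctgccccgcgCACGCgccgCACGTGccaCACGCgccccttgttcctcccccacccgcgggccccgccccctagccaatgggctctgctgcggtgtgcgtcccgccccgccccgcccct
Ddit4 (chr20:28437038-28437287, minus strand): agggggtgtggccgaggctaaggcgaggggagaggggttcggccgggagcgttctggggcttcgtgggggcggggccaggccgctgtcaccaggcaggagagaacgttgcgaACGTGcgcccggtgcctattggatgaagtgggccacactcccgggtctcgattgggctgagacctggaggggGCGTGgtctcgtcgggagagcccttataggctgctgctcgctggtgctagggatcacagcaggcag
Pdk3 holds 5 matches, Ldha and Bnip3 hold 4 each, Aldoc 3 and Ddit4 2. The core is thus present in all 5 printed promoters, of genes that were higher and of genes that were lower. Other genes that were higher at 24 h hold 0 matches. Among them are Egln3, which had the largest rise of the list at that time, Gpi and Slc16a3. Of the listed genes 31 have an entry, among them Egln1 and the untested Tpi1, Eno2 and Pdk4, and 23 have a match in one. By entry, 24 of 36 (66.7%) of the list's promoters hold it, against 12284 of 33469 (36.7%) of all promoters of the same length. The list was chosen to include genes of the hypoxia response, so its share is not independent of that choice. These shares are not matched for base composition, and a match is a run of letters and not a shown binding site.

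The glucose transporters moved in opposite directions. Slc2a1 encodes GLUT1, the common carrier for basal glucose uptake, and was lower in α1ACT at 6 h, 24 h and 3 d. Slc2a1 in the α1ACT line had 33.9, 41 and 38.1 CPM at 6 h, 29.3, 32.5 and 35 at 24 h, 32.3, 35.4 and 31.3 at 3 d, and 36.7, 28.9 and 40.01 at 10 d. Slc2a1 in the vector line had 82.3, 83.7 and 80.5 CPM at 6 h, 43.5, 41.4 and 44.2 at 24 h, 56.6, 74.9 and 50.3 at 3 d, and 35.5, 37.1 and 33.9 at 10 d. All α1ACT values lay below the vector ones at those 3 times, and the groups overlapped at 10 d, where the vector level was at its lowest; it was highest at 6 h. The differences were -1.13 ± 0.11, -0.41 ± 0.11, -0.88 ± 0.11 and -0.01 ± 0.12 at 6 h, 24 h, 3 d and 10 d, with adjusted p of 8.45e-09, 0.00293, 8.45e-07 and 0.924.

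Slc2a3, which encodes GLUT3, the high-affinity carrier typical of neurons, was higher in α1ACT at every time. Slc2a3 in the α1ACT line had 11.5, 14.3 and 13.4 CPM at 6 h, 13.4, 14.7 and 15 at 24 h, 12.9, 15.5 and 13.6 at 3 d, and 14, 15.5 and 14.9 at 10 d. Slc2a3 in the vector line had 8.78, 8.14 and 7.09 CPM at 6 h, 12.2, 10.7 and 10.01 at 24 h, 9.03, 7.26 and 8.92 at 3 d, and 11.2, 10.3 and 10.1 at 10 d. No α1ACT library fell to the level of a vector library of its time. The differences were 0.70 ± 0.12, 0.39 ± 0.11, 0.73 ± 0.12 and 0.49 ± 0.11 in the same order of times, with adjusted p of 4.77e-05, 0.00453, 2.57e-05 and 6.60e-04. Between the lines the 2 carriers thus differed in sign at 6 h, 24 h and 3 d.

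Hexokinases trap glucose as glucose 6-phosphate. Hk2, the inducible form that sits on mitochondria, was higher in α1ACT at all 4 times, and in both lines it was highest at 10 d. Hk2 in the α1ACT line had 22.3, 25.2 and 21.2 CPM at 6 h, 26.3, 29.1 and 51.4 at 24 h, 30.7, 32.1 and 27.3 at 3 d, and 70.8, 47.7 and 83.8 at 10 d. Hk2 in the vector line had 13.9, 11.2 and 14.8 CPM at 6 h, 21.3, 30.9 and 22.4 at 24 h, 13.7, 15.8 and 15.2 at 3 d, and 36.7, 48.8 and 36.5 at 10 d. The groups did not overlap at 6 h and 3 d. They overlapped at 24 h, where α1ACT replicate 3 stood far above the other libraries of its group, and at 10 d. The differences were 0.79 ± 0.24, 0.54 ± 0.20, 1.01 ± 0.22 and 0.73 ± 0.19 at 6 h, 24 h, 3 d and 10 d, with adjusted p of 0.00901, 0.025, 8.28e-04 and 0.00159. The 24 h call rests on α1ACT replicate 3 (0.17, adjusted p = 0.468 without it), and it also ended by DESeq2 (0.053) and without vector replicate 1 (0.102) or 3 (0.0914).

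Hk1, the form found in most tissues, differed mainly between the 6 h and 3 d groups and the 24 h and 10 d groups. Hk1 in the α1ACT line had 304, 290.5 and 314 CPM at 6 h, 191, 226 and 213 at 24 h, 316, 288 and 323 at 3 d, and 219, 199.6 and 253 at 10 d. Hk1 in the vector line had 312, 301 and 310.1 CPM at 6 h, 197, 166 and 196 at 24 h, 309.7, 310.1 and 324 at 3 d, and 184, 181 and 187 at 10 d. Every 24 h and 10 d library of both lines lay below every 6 h and 3 d library. Between the lines Hk1 was higher in α1ACT at 24 h, at 0.17 ± 0.07 (adjusted p = 0.0444), and at 10 d, at 0.28 ± 0.07 (adjusted p = 0.00171). The 24 h call ended with library sizes alone (0.0537), with the 6 libraries alone (0.0644), without vector replicate 2 (0.276) and without α1ACT replicate 2 (0.222) or 3 (0.0986).

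The enzymes that follow hexokinase behaved alike at 24 h and 10 d. Gpi interconverts glucose 6-phosphate and fructose 6-phosphate, and Pfkl, Pfkm and Pfkp are the subunits of phosphofructokinase, which commits sugar to glycolysis. At 10 d Gpi stood at 642 to 736 CPM in α1ACT and 356 to 362 CPM in vector, Pfkl at 492 to 548 and 285 to 304 CPM, Pfkm at 229.6 to 289 and 112 to 129 CPM, and Pfkp at 331 to 368 and 179 to 197 CPM. None of the 4 overlapped between the lines there, and the share of all tested genes without overlap is not given here. Their log2 differences at 10 d were 0.93 ± 0.05, 0.79 ± 0.05, 1.07 ± 0.08 and 0.87 ± 0.05, and at 24 h 0.75 ± 0.05, 0.66 ± 0.05, 0.79 ± 0.08 and 0.62 ± 0.05, with adjusted p of at most 1.36e-08. At 6 h and 3 d the only call among them was Pfkm at 6 h, at 0.24 ± 0.08 (adjusted p = 0.0217), which ended without vector replicate 2 (0.136) or α1ACT replicate 1 (0.0612) or 3 (0.0546). Gpi at 6 h passed with library sizes alone (0.0159) and with the 6 libraries alone (0.0253), and Pfkl at 6 h with library sizes alone (0.0258), both higher in α1ACT.

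Aldolases split the phosphorylated sugar, and the brain form and the muscle form differed. Aldoc, the form of brain, had the largest rise of the list at 10 d. Aldoc in the α1ACT line had 26.8, 30.6 and 25.2 CPM at 6 h, 36, 34.7 and 42.3 at 24 h, 28.3, 26.6 and 28.5 at 3 d, and 58.6, 48.4 and 66.8 at 10 d. Aldoc in the vector line had 21.7, 26.3 and 22.5 CPM at 6 h, 14.2, 13.3 and 15 at 24 h, 34.7, 34.7 and 30.1 at 3 d, and 14.7, 10.2 and 12.8 at 10 d. At 24 h and 10 d every α1ACT library lay above every vector library, while at 3 d every vector library was the higher one. The differences were 0.23 ± 0.12, 1.41 ± 0.12, -0.26 ± 0.11 and 2.20 ± 0.12 at 6 h, 24 h, 3 d and 10 d, with adjusted p of 0.131, 3.53e-10, 0.0771 and 1.75e-13, so that those at 24 h and 10 d passed, and the one at 3 d passed with the 6 libraries alone (0.0134). On a linear scale that was 2.65-fold at 24 h and 4.59-fold at 10 d. Aldoa, the widespread form, was called at 10 d alone, at 0.19 ± 0.06 (adjusted p = 0.00499), with 1626 to 1919.9 CPM in α1ACT and 1518 to 1564 CPM in vector. That call ended without α1ACT replicate 3 (0.0639). At 3 d Aldoa did not pass in edgeR's fit of all libraries (adjusted p = 0.0737), but it was called lower in α1ACT by DESeq2 (-0.14, adjusted p = 0.0389) and with the 6 libraries alone (-0.14, adjusted p = 0.0147).

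Below aldolase, Pgk1, which makes the first ATP of the pathway, showed the plainest split. Pgk1 in the α1ACT line had 951, 903 and 948 CPM at 6 h, 1030.1, 1019.5 and 1078 at 24 h, 952, 1053 and 953 at 3 d, and 1104, 1127 and 1173 at 10 d. Pgk1 in the vector line had 976, 940.2 and 983 CPM at 6 h, 579, 580.4 and 588 at 24 h, 974, 1007 and 987 at 3 d, and 582, 554 and 574 at 10 d. The vector libraries at 24 h and 10 d lay far below all others, and the α1ACT libraries at those times were above all others except 1 α1ACT library at 3 d. The differences were -0.05 ± 0.04, 0.84 ± 0.04, -0.00 ± 0.04 and 0.99 ± 0.04 at 6 h, 24 h, 3 d and 10 d, with adjusted p of 0.388, 8.94e-14, 0.945 and 4.16e-15. Eno1, the enolase of most tissues, was also higher in α1ACT at 24 h and 10 d. Eno1 in the α1ACT line had 167, 178 and 179 CPM at 6 h, 124, 134 and 119.5 at 24 h, 182, 189 and 170.1 at 3 d, and 137, 138 and 154 at 10 d. Eno1 in the vector line had 164, 158 and 176 CPM at 6 h, 79.9, 72.4 and 76.9 at 24 h, 186, 177 and 163 at 3 d, and 78.6, 60.3 and 74 at 10 d. Both lines were lower at 24 h and 10 d than at 6 h and 3 d, and vector was the lowest. Eno1 differed by 0.72 ± 0.08 (adjusted p = 1.29e-08) at 24 h and 1.01 ± 0.08 (adjusted p = 4.44e-11) at 10 d.

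Pgam1, which shifts the phosphate of phosphoglycerate, changed sign between times. It was 867 against 959.6 CPM on average in α1ACT and vector at 6 h, 907 against 730.1 CPM at 24 h, 856 against 948 CPM at 3 d, and 965 against 651 CPM at 10 d. The differences were -0.15 ± 0.05, 0.31 ± 0.05, -0.15 ± 0.05 and 0.57 ± 0.05, with adjusted p of 0.0313, 2.27e-05, 0.0323 and 2.07e-09. The calls at 6 h and 3 d were weak: with library sizes alone the 6 h p was 0.109 and the 3 d p 0.0929. At 6 h the call was also lost without any 1 library except α1ACT replicate 2, with p from 0.0502 to 0.171. At 3 d it was lost without vector replicate 2 or 3 or α1ACT replicate 1 or 3, with p from 0.0551 to 0.124. Gapdh, the dehydrogenase between aldolase and Pgk1, was called at 10 d alone, at 0.36 ± 0.10 (adjusted p = 0.00227), with 170.4 to 186 CPM in α1ACT and 126 to 158 CPM in vector. At 24 h Gapdh passed with the 6 libraries alone (0.0208).

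Several of these genes have copies that can share reads. RefSeq on GRCr8 names 78 pseudogenes for Gapdh, 30 for Eno1, 30 for Ldha, 13 for Pgam1, 9 for Aldoa, 8 for Pgk1 and 8 for Bnip3. How reads that fit a gene and its copy were counted is not given in the sources used here, so the levels of these genes are uncertain, and the part of the copies in the differences was not tested.

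Lactate dehydrogenase A favours lactate, and its gene Ldha was higher in α1ACT at 24 h and 10 d, at 0.75 ± 0.07 (adjusted p = 6.33e-10) and 1.09 ± 0.07 (adjusted p = 1.07e-12). Ldha stood at 2388, 2603 and 2554 CPM in α1ACT and 1500.5, 1528 and 1471 CPM in vector at 24 h. The 10 d values were 2658, 2795 and 2909 CPM in α1ACT and 1311, 1286 and 1339.7 CPM in vector. The groups were far apart at both times, and they overlapped at 6 h and 3 d, where the differences were 0.05 ± 0.07 and 0.02 ± 0.07 and did not pass. Ldhb, the form of heart and brain, was scarce. Ldhb in the α1ACT line had 4.6, 5.08 and 6.16 CPM at 6 h, 3.87, 4.25 and 5.02 at 24 h, 4.84, 3.7 and 6.38 at 3 d, and 4.61, 4.24 and 5.87 at 10 d. Ldhb in the vector line had 3.19, 3.55 and 2.2 CPM at 6 h, 2.81, 3.27 and 4.39 at 24 h, 5.42, 3.22 and 4.15 at 3 d, and 3.12, 2.69 and 3.63 at 10 d. Its values scattered widely within groups, and the lines did not overlap at 6 h and 10 d. Ldhb was higher in α1ACT at 6 h, at 0.81 ± 0.23 (adjusted p = 0.00747), and at 10 d, at 0.62 ± 0.24 (adjusted p = 0.0274). The 10 d call ended without vector replicate 1 (0.0582) or 2 (0.0955) or α1ACT replicate 3 (0.132).

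**Figure D2:**
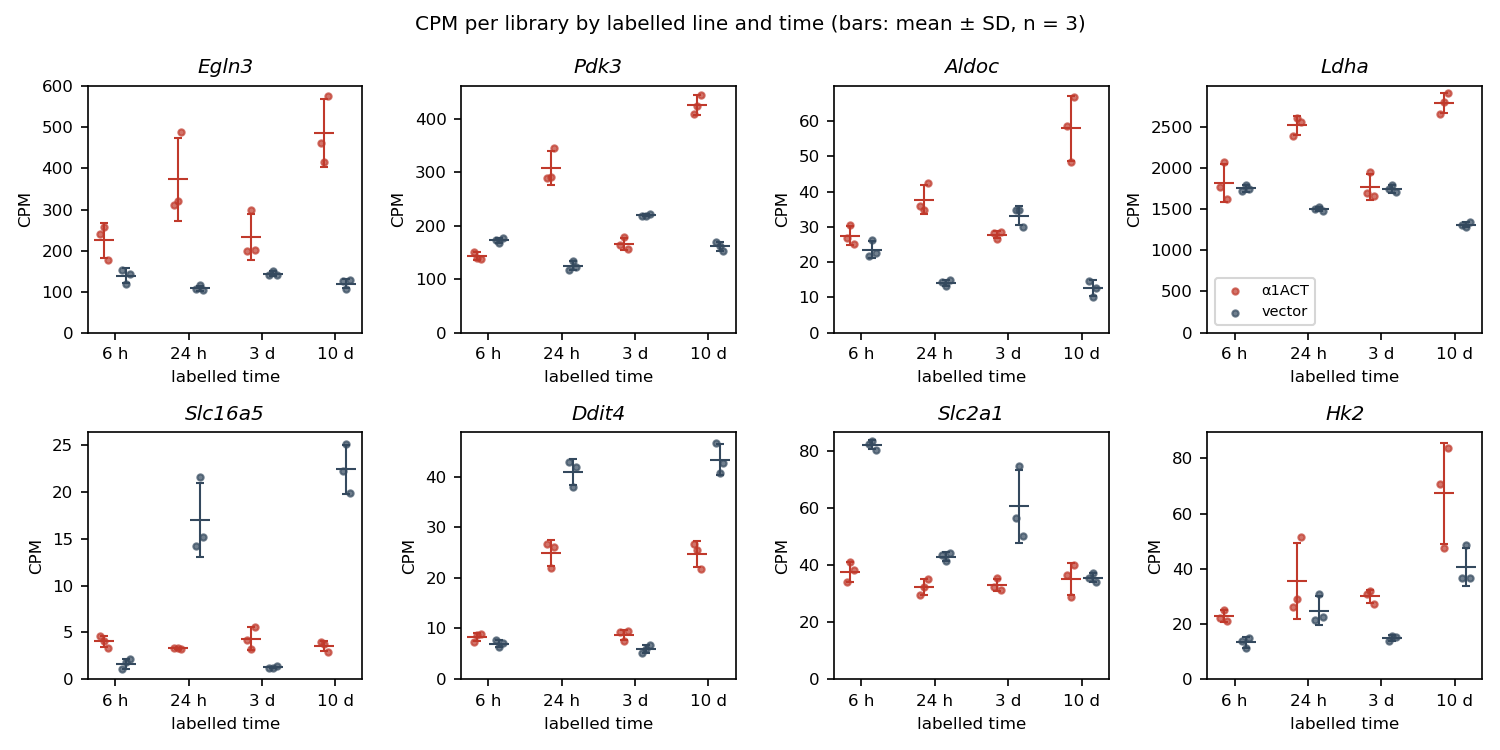
CPM (vertical axes, from 0) of 8 genes in every library by labelled time, with α1ACT left of vector, points for libraries and bars for mean ± SD (n = 3). Egln3, Pdk3, Aldoc and Ldha stand higher in α1ACT at 24 h and 10 d, Slc16a5 and Ddit4 lower, Slc2a1 is lower at 6 h, and 1 α1ACT library at 24 h stands high in Hk2 and Egln3.

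The pyruvate dehydrogenase kinases divided. Pdk3 had one of the clearest changes of sign on the list. Pdk3 in the α1ACT line had 152, 139 and 139 CPM at 6 h, 290.2, 291 and 346 at 24 h, 163, 178 and 157 at 3 d, and 409, 425 and 445 at 10 d. Pdk3 in the vector line had 174, 167 and 177 CPM at 6 h, 118, 134 and 124 at 24 h, 218, 219 and 222 at 3 d, and 169, 163 and 153 at 10 d. At 24 h and 10 d the α1ACT libraries were all higher, and at 6 h and 3 d they were all lower, with no overlap at any time. The differences were -0.27 ± 0.06, 1.31 ± 0.06, -0.40 ± 0.06 and 1.40 ± 0.06 at 6 h, 24 h, 3 d and 10 d, with adjusted p of 0.0017, 4.16e-14, 2.28e-05 and 5.67e-15. The test of whether the difference changed between times gave an adjusted p of 4.74e-15.

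Pdk1, the classical HIF target of this family, was higher in α1ACT at 24 h, at 0.87 ± 0.06 (adjusted p = 2.12e-11), and at 10 d, at 1.04 ± 0.06 (adjusted p = 1.26e-12). It had 83.2 to 95.9 CPM in α1ACT and 40.2 to 45.7 CPM in vector at 10 d. Its smaller call at 6 h, at 0.19 ± 0.06 (adjusted p = 0.0164), ended without vector replicate 2 (0.0957) or α1ACT replicate 1 (0.0959). Pdk2, a widely expressed kinase, went another way. Pdk2 in the α1ACT line had 29.1, 31.7 and 35.9 CPM at 6 h, 22.3, 21 and 26.7 at 24 h, 32.8, 31.4 and 35.1 at 3 d, and 28.5, 24.9 and 29.3 at 10 d. Pdk2 in the vector line had 23.4, 24.1 and 21.5 CPM at 6 h, 26.9, 25.6 and 30.9 at 24 h, 26.2, 20.2 and 25.6 at 3 d, and 30.7, 31.5 and 27.4 at 10 d. The α1ACT libraries were all higher at 6 h and 3 d, and the lines overlapped at 24 h and 10 d. The differences were 0.48 ± 0.11, -0.25 ± 0.11, 0.46 ± 0.11 and -0.11 ± 0.11, with adjusted p of 7.13e-04, 0.0459, 0.00116 and 0.363. The 24 h call ended with RLE factors (0.0515), by DESeq2 (0.0559), with the 6 libraries alone (0.085), and without vector replicate 1 or 3 or α1ACT replicate 1 or 2 (p from 0.0589 to 0.253). Pdk4, a kinase induced by fasting, had a single count in all libraries together.

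Monocarboxylate transporters carry lactate and pyruvate across the membrane. Slc16a3 encodes MCT4, the exporter of cells that make much lactate, and was higher in α1ACT at every time. Slc16a3 in the α1ACT line had 127, 146 and 119.6 CPM at 6 h, 95, 131 and 109.7 at 24 h, 144, 164 and 142 at 3 d, and 118, 125 and 144 at 10 d. Slc16a3 in the vector line had 89.3, 93.8 and 87.2 CPM at 6 h, 65, 58.1 and 53 at 24 h, 111, 95.3 and 99 at 3 d, and 59.4, 64.8 and 62.8 at 10 d. No library of α1ACT reached down to vector at its time. The differences were 0.54 ± 0.10, 0.93 ± 0.10, 0.56 ± 0.10 and 1.05 ± 0.10, with adjusted p of 9.35e-05, 1.70e-08, 6.22e-05 and 2.13e-09. Slc16a1, which encodes MCT1, went the other way. Slc16a1 in the α1ACT line had 387, 407 and 386 CPM at 6 h, 338, 339 and 370.0 at 24 h, 360.5, 362 and 356 at 3 d, and 356, 340.2 and 369 at 10 d. Slc16a1 in the vector line had 539.7, 601 and 553 CPM at 6 h, 386, 407 and 376 at 24 h, 453, 531 and 472 at 3 d, and 384, 493 and 416 at 10 d. Every α1ACT library was below every vector library at each time. The differences were -0.52 ± 0.07, -0.16 ± 0.07, -0.43 ± 0.07 and -0.28 ± 0.07, with adjusted p of 1.46e-06, 0.0525, 2.29e-05 and 0.00126, so that the one at 24 h did not pass, and it passed with library sizes alone (0.0412), with the 6 libraries alone (0.0492) and without α1ACT replicate 3 (0.0266).

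Slc16a5, which encodes MCT6, a carrier whose known substrates include drugs rather than lactate, had the widest range of the list. Slc16a5 in the α1ACT line had 4.6, 4.08 and 3.37 CPM at 6 h, 3.34, 3.28 and 3.27 at 24 h, 4.23, 3.2 and 5.56 at 3 d, and 4.01, 3.71 and 2.93 at 10 d. Slc16a5 in the vector line had 1.06, 1.82 and 2.1 CPM at 6 h, 14.2, 21.6 and 15.2 at 24 h, 1.23, 1.19 and 1.35 at 3 d, and 22.3, 25.1 and 19.9 at 10 d. The vector libraries at 24 h and 10 d stood far above the other 18, and at 6 h and 3 d the vector libraries were the lowest of all. The differences were 1.28 ± 0.27, -2.35 ± 0.19, 1.77 ± 0.28 and -2.65 ± 0.19 at 6 h, 24 h, 3 d and 10 d, with adjusted p of 4.44e-04, 1.04e-10, 2.09e-05 and 1.22e-11. On a linear scale α1ACT was 5.1-fold lower at 24 h, 3.41-fold higher at 3 d and 6.26-fold lower at 10 d. Without replicate 1 of both groups the 6 h difference had an adjusted p of 0.0511.

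Pfkfb3 and Pfkfb4 make and remove the sugar bisphosphate that activates phosphofructokinase. Pfkfb3 was higher in α1ACT at 10 d alone, at 0.36 ± 0.09 (adjusted p = 8.56e-04), with 29.1 to 34.7 CPM in α1ACT and 23 to 26.3 CPM in vector. At 24 h its p of 0.083 passed without vector replicate 1 (0.0163). Pfkfb4 was scarce. Pfkfb4 in the α1ACT line had 4.02, 3.17 and 2.61 CPM at 6 h, 2.11, 3.28 and 3.11 at 24 h, 2.31, 2.02 and 2 at 3 d, and 2.41, 2.75 and 2.7 at 10 d. Pfkfb4 in the vector line had 4.88, 3.29 and 4.2 CPM at 6 h, 2.44, 1.49 and 2.54 at 24 h, 3.2, 4.23 and 3.32 at 3 d, and 1.17, 2.02 and 2.35 at 10 d. The lines overlapped at 6 h and 24 h and lay apart at 3 d, with α1ACT lower, and at 10 d, with α1ACT higher. The 3 d difference was -0.75 ± 0.25 (adjusted p = 0.0176), and that call ended without vector replicate 2 (0.0982) or α1ACT replicate 2 (0.0503) or 3 (0.0512). The other 3 differences did not pass.

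Genes of the hypoxia response did not move as a block. Egln3 encodes a prolyl hydroxylase that HIF induces and that acts on HIF in turn, and was higher in α1ACT at all 4 times. Egln3 in the α1ACT line had 241, 258 and 177 CPM at 6 h, 309.9, 321 and 489 at 24 h, 199, 298 and 201 at 3 d, and 462, 416 and 577 at 10 d. Egln3 in the vector line had 154, 118 and 143 CPM at 6 h, 106, 115 and 103 at 24 h, 140.3, 150.3 and 141 at 3 d, and 125, 106 and 128 at 10 d. No vector library exceeded an α1ACT library of its time. The differences were 0.70 ± 0.16, 1.79 ± 0.17, 0.69 ± 0.16 and 2.02 ± 0.17 at 6 h, 24 h, 3 d and 10 d, with adjusted p of 0.00136, 1.28e-09, 0.00157 and 1.58e-10. That was 3.46-fold at 24 h, where replicate 3 of α1ACT was again high, and 4.05-fold at 10 d.

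Ddit4, also called REDD1, restrains mTORC1 under hypoxia and other stress, and was higher at 24 h and 10 d than at 6 h and 3 d in both lines. Ddit4 in the α1ACT line had 7.31, 8.75 and 8.86 CPM at 6 h, 26.7, 21.9 and 26.1 at 24 h, 9.23, 7.58 and 9.48 at 3 d, and 26.8, 25.5 and 21.8 at 10 d. Ddit4 in the vector line had 7.63, 6.33 and 7.09 CPM at 6 h, 42.9, 37.9 and 41.9 at 24 h, 5.17, 5.88 and 6.74 at 3 d, and 46.6, 40.6 and 42.8 at 10 d. The 24 h and 10 d libraries were above all 6 h and 3 d libraries, and at 24 h and 10 d vector was above α1ACT. The differences between the lines were 0.24 ± 0.14, -0.71 ± 0.09, 0.57 ± 0.14 and -0.81 ± 0.10, with adjusted p of 0.167, 4.56e-07, 0.00243 and 8.20e-08. Bnip3, a mitophagy receptor, was likewise higher at 24 h and 10 d than at 6 h and 3 d in both lines. Bnip3 in the α1ACT line had 268, 286 and 256 CPM at 6 h, 403, 338 and 451 at 24 h, 236, 251 and 241 at 3 d, and 454, 432 and 466 at 10 d. Bnip3 in the vector line had 217, 216 and 217 CPM at 6 h, 504, 589 and 534 at 24 h, 215, 205 and 209.9 at 3 d, and 519, 450.3 and 497 at 10 d. The α1ACT line was higher at 6 h and 3 d, lower at 24 h, and overlapped vector at 10 d. The differences were 0.32 ± 0.07, -0.45 ± 0.07, 0.21 ± 0.07 and -0.12 ± 0.07, with adjusted p of 0.00135, 8.95e-06, 0.0274 and 0.166. The 3 d call ended without vector replicate 2 or 3 or α1ACT replicate 2 or 3, with p from 0.0531 to 0.0878.

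Vegfa, the angiogenic growth factor, was higher in α1ACT at 6 h, at 0.72 ± 0.09 (adjusted p = 2.84e-07), and at 3 d, at 0.58 ± 0.09 (adjusted p = 8.10e-06). At 24 h it was -0.17 ± 0.08 and at 10 d 0.19 ± 0.08, with adjusted p of 0.0895 and 0.0553. Without α1ACT replicate 3 the 24 h difference passed (0.00839), and the 10 d difference did without α1ACT replicate 2 (0.0137) and with no filter on low counts (0.0331). Ankrd37, a HIF target of little-known function, was higher in α1ACT at 24 h, at 0.33 ± 0.09 (adjusted p = 0.00354), and at 10 d, at 0.77 ± 0.09 (adjusted p = 1.36e-07). At 3 d Ankrd37 was lower, at -0.28 ± 0.09 (adjusted p = 0.0228), a call that ended without α1ACT replicate 1 (0.0771) or 2 (0.0894). Hif1a, the oxygen-sensitive subunit of HIF, which is controlled mostly as a protein, was lower in α1ACT. Hif1a in the α1ACT line had 204, 213 and 219 CPM at 6 h, 187, 184 and 203 at 24 h, 209, 202 and 214 at 3 d, and 202, 192 and 193 at 10 d. Hif1a in the vector line had 226, 221 and 219 CPM at 6 h, 231, 247 and 238 at 24 h, 235, 243 and 249 at 3 d, and 251, 253 and 238 at 10 d. The α1ACT libraries lay below vector at 24 h, 3 d and 10 d, and the groups overlapped at 6 h. The differences were -0.06 ± 0.05, -0.32 ± 0.05, -0.22 ± 0.05 and -0.34 ± 0.05, with adjusted p of 0.268, 1.71e-06, 4.53e-04 and 7.18e-07.

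**Figure D3:**
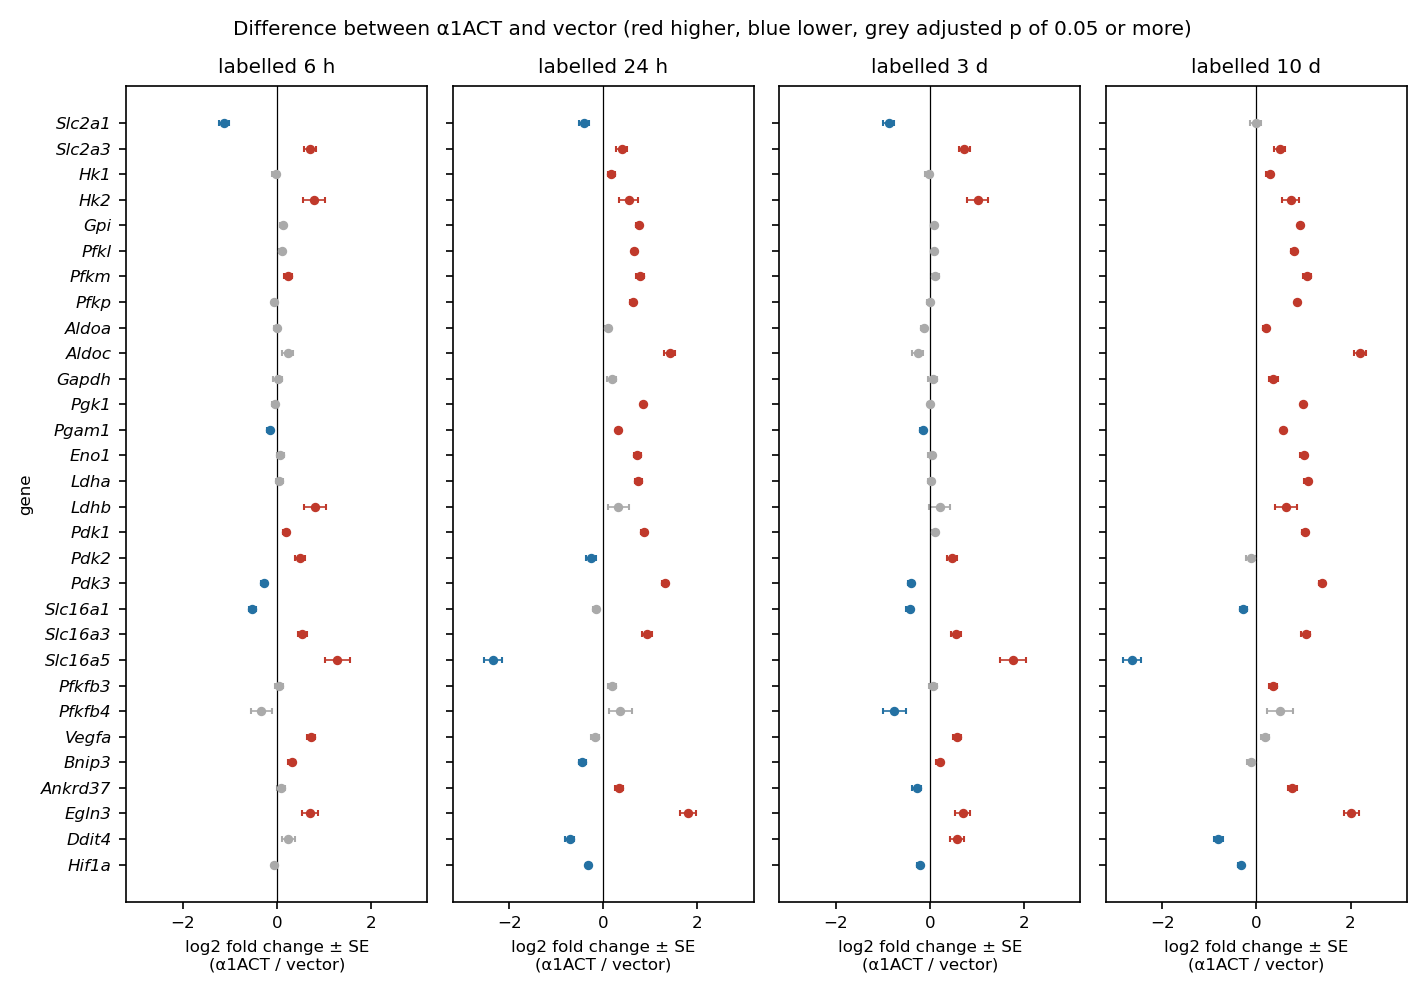
Log2 fold change of α1ACT over vector ± SE (horizontal axes) for the 30 tested genes (rows) at each labelled time, red for genes called higher, blue for genes called lower and grey for the others. At 24 h and 10 d most enzymes lie right of 0 and Slc16a5 and Ddit4 left of it, and at 6 h and 3 d most enzymes lie near 0.

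Within a labelled line, the comparison of 24 h with 6 h and that of 10 d with 3 d gave large differences. In vector, 8 genes were higher and 17 lower at 24 h than at 6 h, beside 31.6% and 29.9% of all genes. The vector line at 10 d had 7 higher and 18 lower than at 3 d, beside 33.2% and 31% of all genes. At the later time of each pair vector had less RNA of most glycolytic enzymes and more of Slc16a5, Ddit4, Bnip3, Vegfa and Hk2. At 10 d against 3 d, Slc16a5 differed by 4.15 ± 0.22, Ddit4 by 2.88 ± 0.12, Hk2 by 1.45 ± 0.22 and Bnip3 by 1.22 ± 0.07, against -1.40 ± 0.13 for Aldoc, -1.30 ± 0.08 for Eno1 and -0.79 ± 0.04 for Pgk1. All 7 had adjusted p of at most 2.33e-06.

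The α1ACT line had 13 genes higher and 6 lower at 24 h than at 6 h, beside 21.7% and 22.4% of all genes. Without α1ACT replicate 3 at 24 h, or without replicate 3 at 6 h, 8 were higher. At 10 d against 3 d, 16 were higher and 3 lower, beside 21.8% and 22.8%. Ddit4 was 2.83-fold and Pdk3 2.56-fold higher at 10 d than at 3 d, with adjusted p of 2.10e-10 and 2.89e-14. Hk2, Aldoc, Egln3 and Bnip3 were also higher at 10 d, and Hk1, Eno1 and Pdk2 were the 3 that were lower. The Pdk2 call (adjusted p = 0.0455) ended without replicate 1 (0.0659) or 2 (0.199) at 10 d or replicate 1 (0.0749) or 3 (0.127) at 3 d. Ddit4 and Bnip3 were thus higher at the later time in both lines, while Pgk1, Aldoc and Pdk3 were higher in α1ACT and lower in vector. These comparisons share their groups with the comparisons of the lines. By file names they are, within P, 3 d against 6 h and 10 d against 24 h, and the same within Q11.

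The close pairs of groups differed in few of these genes. Pdk3 was called in 3 of the 4 pairs, and Hk2 and Aldoc in 2 each. In vector at 3 d against 6 h, 3 of 30 were called, beside 1.47% of all genes. Pdk3 differed by 0.35 ± 0.06 (adjusted p = 0.00544) and Aldoc by 0.50 ± 0.12 (adjusted p = 0.0284), and Slc2a1 by -0.44 ± 0.10 (adjusted p = 0.0282). In α1ACT at 3 d against 6 h none of the 30 was called by edgeR, beside 1.06% of all genes, with 5 at an unadjusted p under 0.05 and 0 called by DESeq2, while Hk2 passed with the 6 libraries alone (0.0404). In vector at 10 d against 24 h, 2 of 30 were called, beside 7.44% of all genes, and these were Hk2 at 0.72 ± 0.20 (adjusted p = 0.0267) and Pdk3 at 0.37 ± 0.06 (adjusted p = 0.00101). In α1ACT at 10 d against 24 h, 5 were called, beside 4.62%, with Hk2 at 0.91 ± 0.19 (adjusted p = 0.0108), Aldoc at 0.61 ± 0.11 (adjusted p = 0.00363) and Pdk3 at 0.46 ± 0.06 (adjusted p = 1.92e-04). Gpi and Aldoa were the other 2, at 0.23 ± 0.05 and 0.24 ± 0.06.

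Many of these calls ended when 1 library was left out. In vector at 3 d against 6 h, leaving out 1 library left 1 to 2 genes higher and 0 to 2 lower. In vector at 10 d against 24 h the Hk2 call ended without replicate 1 or 3 at 24 h or replicate 2 at 10 d, with p from 0.123 to 0.16. In α1ACT at 10 d against 24 h it left 2 to 8 genes higher, and the 8 came without α1ACT replicate 3 at 24 h, when Egln3, Bnip3 and Vegfa passed as well. The Hk2 call there ended without replicate 1 or 2 at 24 h or replicate 1 or 3 at 10 d, with p from 0.0511 to 0.0933. With the 6 libraries alone the calls of Hk2 (0.101), Gpi (0.122) and Aldoa (0.147) ended there. Pdk3 kept its call in each of these leave-outs of 1 library. Without replicate 1 of every group its calls ended in vector at 3 d against 6 h (0.219) and at 10 d against 24 h (0.0788). The Pdk3 call in α1ACT at 10 d against 24 h ended there too (0.0814). Without replicate 3 of every group the Pdk3 call in vector at 3 d against 6 h ended (0.121).

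Read by file names, those same 4 comparisons are Q11 against P at 6 h, 24 h, 3 d and 10 d. Their mean, which by the labels is 3 d and 10 d against 6 h and 24 h over both lines, was higher for 6 genes and lower for 1, beside 8.25% and 7.37% of all genes. Hk2 at 0.55 ± 0.11 (adjusted p = 8.49e-04) and Pdk3 at 0.35 ± 0.03 (adjusted p = 4.76e-08) were called higher, as were Aldoc, Slc16a3, Aldoa and Gpi, and Slc2a1 was the 1 that was lower, at -0.20 ± 0.06 (adjusted p = 0.0174). The Slc16a3 call (adjusted p = 0.0213) ended without the libraries labelled vector 24 h replicate 3 (0.0533) or vector 3 d replicate 1 (0.06). Without replicate 1 of every group, the calls of Hk2 (0.0624), Aldoc (0.323), Slc16a3 (0.124), Aldoa (0.23), Gpi (0.166) and Slc2a1 (0.152) ended. Without replicate 3 of every group, those of Aldoc, Slc16a3, Aldoa, Gpi and Slc2a1 ended, with p from 0.0728 to 0.317. A test added after seeing the data, of whether the difference within these pairs differs between them, passed for none of the 30 by edgeR, beside 0.04% of all genes. In it 10 genes had an unadjusted p under 0.05, and DESeq2 called 1, Aldoc.

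In the order of the file names, the mean was highest at the same named time in Q11 and P for 27 of the 30 tested genes and lowest at the same named time for 27, with both holding for 24. The same count over all tested genes is not given here. By the names, Q11 and P at the same time are the closest groups over all tested genes, so these counts are not a result about the list. Aldoa and Pgam1 were highest at 10 d in Q11 and at 6 h in P, and Vegfa at 10 d in Q11 and 3 d in P. Slc2a1 was lowest at 24 h in Q11 and 10 d in P, and Ankrd37 and Ldhb at 3 d in Q11 and 6 h in P. These are orders of means, with no test of the order. Mean Pgk1 was 989, 986, 570.3 and 1134 CPM in Q11 at 6 h, 24 h, 3 d and 10 d, and 966, 934, 583 and 1043 CPM in P. Mean Ldha was 1746, 1768, 1312 and 2787 CPM in Q11 and 1751, 1818, 1499.7 and 2515 CPM in P at the same named times. Both genes were lowest at the named 3 d and highest at the named 10 d. Ddit4 averaged 5.93, 8.76, 43.3 and 24.7 CPM in Q11 and 7.02, 8.3, 40.9 and 24.9 CPM in P, and was highest at the named 3 d. Slc16a5 averaged 1.26, 4.33, 22.4 and 3.55 CPM in Q11 and 1.66, 4.02, 17 and 3.3 CPM in P, likewise highest at the named 3 d. Pdk3 averaged 219.6, 166, 161 and 426 CPM in Q11 and 173, 143, 125 and 309 CPM in P, with Q11 the higher at each named time. Hk2 averaged 14.9, 30.03, 40.7 and 67.4 CPM in Q11 and 13.3, 22.9, 24.9 and 35.6 CPM in P, again with the mean of Q11 the higher. The Hk2 libraries overlapped at the named 6 h, with 13.7 to 15.8 CPM in Q11 and 11.2 to 14.8 CPM in P. In the fit of all libraries Hk2 was called at the named 3 d and 10 d alone. Those calls ended without some single libraries, as given above. Pdk3 was not called at the named 24 h. Which of the groupings is right was not tested.

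**Figure D4:**
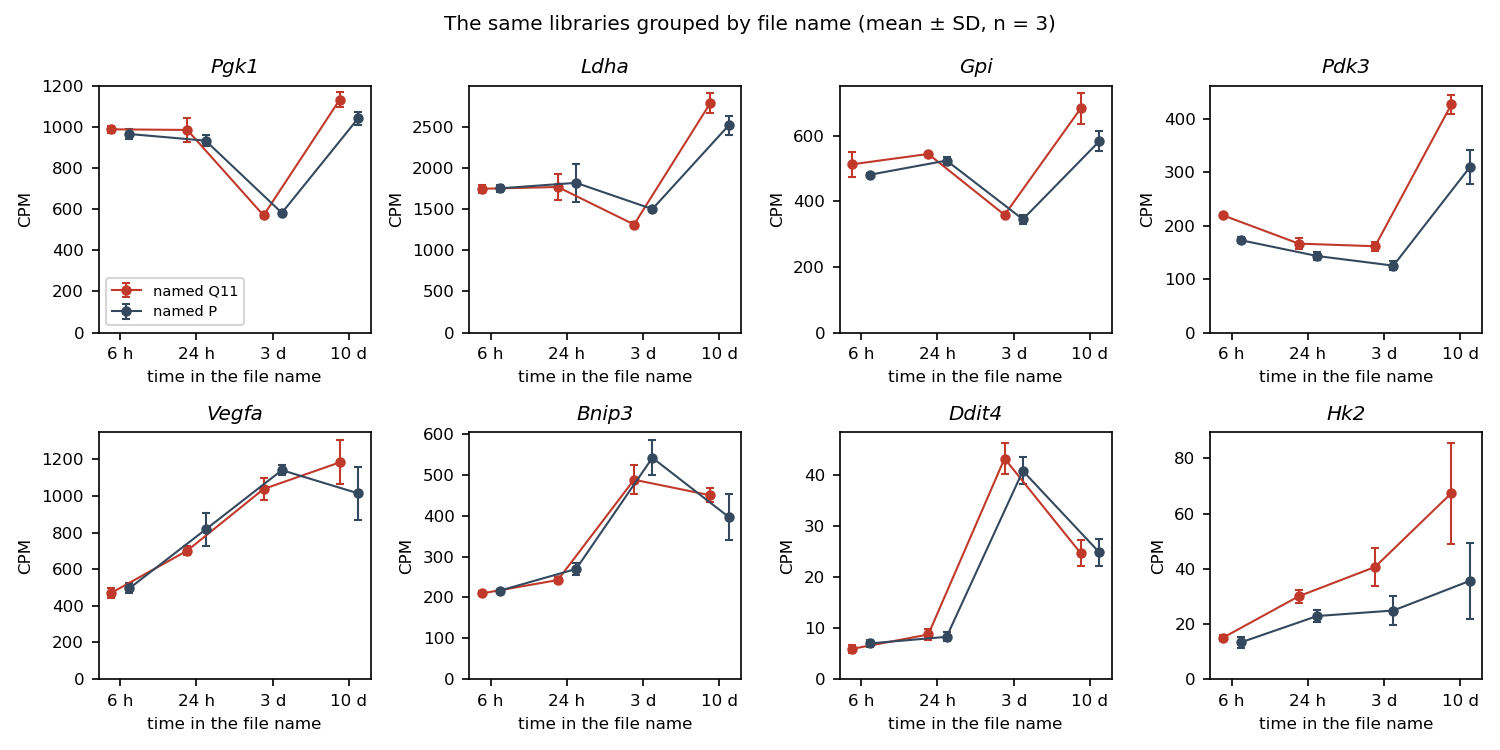
Mean CPM ± SD (vertical axes, n = 3) of 8 genes with the libraries grouped by file name, Q11 and P at 6 h, 24 h, 3 d and 10 d. Pgk1, Ldha and Gpi are lowest and Ddit4 and Bnip3 highest at the named 3 d in both, and the means of Pdk3 and Hk2 lie higher in Q11.

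Other genes of the same pathways were counted from lists that leave out the genes above. Pkm, the pyruvate kinase of most tissues and the last step of glycolysis, was not called between the lines, with log2 differences of 0.03, 0.04, 0.05 and 0.11 at 6 h, 24 h, 3 d and 10 d. Its mean level was 618 CPM in α1ACT and 572 CPM in vector at 10 d, and it was higher at 24 h than at 6 h and at 10 d than at 3 d in both lines. The counts that follow stand beside 20.5%, 26.6%, 19.9% and 29.5% of all tested genes higher and 21.2%, 28.8%, 19.4% and 29.4% lower at 6 h, 24 h, 3 d and 10 d, and in lists this short a count near those shares is not a result about the list. Of 10 other glycolytic genes, 4, 4, 3 and 3 were higher in α1ACT and 0, 3, 0 and 3 lower at the 4 times. Pgm2, a phosphopentomutase, was 0.89 at 24 h and 0.87 at 10 d, and Eno3, the muscle enolase, 0.71 at 10 d. Of 12 other carriers of glucose and monocarboxylates, 2, 2, 3 and 3 were higher and 0, 3, 0 and 4 lower.

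Around pyruvate dehydrogenase, 1, 6, 3 and 5 of 10 genes of its subunits, phosphatases and the mitochondrial pyruvate carrier were higher in α1ACT and 1, 3, 5 and 4 lower at the 4 times. Of 11 pentose phosphate genes, 2, 4, 1 and 4 were higher and 2, 2, 2 and 1 lower, beside the same shares of all genes. Prps2, which makes the activated ribose of nucleotides, was 1.10 at 24 h and 1.29 at 10 d, and Tkt, transketolase, 0.66 at 10 d. The 11 genes of gluconeogenesis and glycogen had 6, 6, 4 and 5 higher and 1, 4, 2 and 2 lower. Gbe1, the glycogen branching enzyme, was the largest of them at 1.62 and 2.01 at 24 h and 10 d, with 420.4 CPM in α1ACT and 105 CPM in vector at 10 d, while Pck2, the mitochondrial PEP carboxykinase, was -0.78 and -0.88.

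Of 38 other hypoxia genes, 16, 5, 12 and 10 were higher in α1ACT and 8, 18, 10 and 11 lower at 6 h, 24 h, 3 d and 10 d, beside the shares of all genes given above. Epas1, which encodes HIF-2 alpha, was 0.63, -1.21, 0.76 and -1.18 at the 4 times, so it was higher at 6 h and 3 d and lower at 24 h and 10 d. Hmox1, the heme oxygenase, was -1.54 and -1.02 at 24 h and 10 d, and Stc2, a stanniocalcin, -1.20 and -0.97. Against these, Plod2, a collagen lysyl hydroxylase, was 0.66 and 0.95, and Pgf, the placental growth factor, was 1.13 at 6 h and 1.03 at 3 d. All named values passed the test. Of all tested genes 20.5%, 26.6%, 19.9% and 29.5% were higher and 21.2%, 28.8%, 19.4% and 29.4% lower at those times. Members of the list on both sides at every time are therefore not a result about the list. At 6 h more of its genes were higher than lower, and at 24 h more were lower than higher.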

How the data were processed

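Total RNA of 24 libraries of 8 groups was measured. Ribosomal RNA was depleted, a stranded kit was used, and fragments were read as pairs of 100 bases in 3 lanes, per the labels' protocols. The authors deposited a table of raw read counts per gene symbol for each library. The submitters' processing notes name HTSeq 0.5.4p5, edgeR, Picard 1.117, TopHat2 2.0.10 and FastQC 0.11.2, with build rn5. What each did, the annotation, the strand setting and any removal of duplicates were not given in the sources used here, so overlapping antisense genes may share reads.

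The summary lines at the end of each table stayed out of the library sizes. Reads assigned to no feature were 47.8% to 52.9%, and ambiguous reads 0.159% to 0.242%. Both are shares of the reads counted on genes, ambiguous or without a feature, and not of all reads. Whether the reads without a feature lie inside genes, as in introns, is not given. Depth of 8679560 to 14486248 counts per library limits the precision of scarce genes. Groups follow the labels. In edgeR 4.0.16 (R 4.3.3), genes with enough counts by group (minimum 10, total 15) were kept, 9994 in all, with TMM factors of 0.981 to 1.02 and 16 residual degrees of freedom. The common biological coefficient of variation was 5.75%. Benjamini-Hochberg adjustment ran over all tested genes, and scripts were tested on simulated data. The 3 libraries of a group are called biological replicates, but the labels name no separate cultures, and p-values then measure only the spread among these libraries, which may be technical.

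Alternatives were RLE factors, no scaling factors, no filter, DESeq2 1.42.0, the replicate number as a block, the 6 libraries of a comparison alone, and leaving out libraries. Replicate numbers are shared between groups in the labels. Correlations of deviations from the group mean were compared with a set minimum of 0.1. They passed it for every pair only at 3 d, between α1ACT and vector (0.124 to 0.318). At 6 h between the lines they were 0.098 to 0.342, and in vector at 24 h against 6 h 0.0985 to 0.232. Whether the numbers pair the samples is therefore not settled by these values. The block left the 9 higher and 7 lower genes at 3 d as they were. Values in every library are given for up to 3 genes each way per comparison with the largest called change and a mean of at least 2 CPM, and for the smallest p among groups. Genes of other lists were named among those past the threshold with a fold of at least 1.5. The genes and lists were chosen with earlier results of these data known.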

Additional observations from a re-analysis of the deposited data

Results flagged for a closer look

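The difference between α1ACT and vector changed between the labelled times in 25 of the 30 tested genes, by the 3-degree test of line by time in edgeR. Adjusted p were smallest for Pdk3 (4.74e-15), Pgk1 (7.55e-14), Slc16a5 (3.52e-12), Aldoc (1.08e-11) and Pfkp (1.45e-11). Next came Gpi (1.28e-10), Ldha (2.09e-10), Pdk1 (6.71e-10), Pfkl (8.89e-10), Pgam1 (6.40e-09), Eno1 (9.12e-09), Ddit4 (7.49e-08), Pfkm (1.62e-07), Vegfa (1.56e-06) and Bnip3 (1.74e-06). The remaining genes were Ankrd37 (2.35e-06), Slc2a1 (5.60e-06), Egln3 (7.68e-06), Pdk2 (9.06e-05), Hif1a (0.00252), Slc16a3 (0.00339), Aldoa (0.00709), Slc16a1 (0.0108), Pfkfb4 (0.0111) and Hk1 (0.0228). Of all tested genes 57.7% passed the same test. By file names this is a test among other groups of the same libraries.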

How the results depend on the processing

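Over 31 counts of genes called, 531 of 584 alternative settings stayed within 1.5 times the main count, and of 66 named differences 1109 of 1160 settings kept sign and side of the threshold, 51 lost the call and 0 changed sign. At 24 h and 10 d the counts between α1ACT and vector stayed within that range under every alternative. With the replicate block, 2 genes were lower in vector at 3 d against 6 h and 1 in vector at 10 d against 24 h, and 1 passed the added test of the close pairs. That test also passed for 1 gene with no filter and 1 by DESeq2. With library sizes alone, 1 gene was lower in vector at 10 d against 24 h and 5 in α1ACT at 10 d against 3 d. With 6 libraries alone, 1 gene was higher in α1ACT at 3 d against 6 h and 2 at 10 d against 24 h.

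Leaving out libraries gave 7 to 11 genes higher at 6 h. In vector at 3 d against 6 h it gave 0 to 2 higher and 0 to 2 lower, and at 10 d against 24 h 0 to 3 higher and 0 to 2 lower. In α1ACT it gave 0 to 11 higher at 10 d against 24 h, and 4 to 14 higher and 3 to 7 lower at 24 h against 6 h. For 3 d and 10 d against 6 h and 24 h it gave 1 to 7 higher and 0 to 2 lower, and for the added test 0 to 5. Beyond the fewer libraries themselves, the cause was not tested. In comparisons of groups other than the lines at 3 d, the replicate block changed a count of called genes by at most 1. With the block, Slc16a1 at 24 h (0.0284) and Vegfa at 10 d (0.0331) passed between the lines. Depth limits Slc16a5, Ldhb and Pfkfb4, at a few CPM, more than the enzymes.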

Other observations

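Eno2, the neuronal enolase, and Tpi1, triose phosphate isomerase, are both needed to read a complete glycolytic list and were almost without counts, and they are neighbours on GRCr8. This was seen after the values were known. Between them lie Lrrc23 and Spsb2, and Atn1 lies on the other side of Eno2. Over all 24 libraries these 5 genes in a row had 11 (Atn1), 106 (Eno2), 0 (Lrrc23), 3 (Spsb2) and 40 (Tpi1) counts. Next to them Grcc10 had 116 counts, while Ptpn6 beyond it had 7629, and Usp5 on the side of Tpi1 had 16570. The values of Eno2 and Tpi1 are therefore given as counts only and were left out of every comparison.

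Among transporters outside the list, Slc2a4, the insulin-responsive GLUT4, was called higher in α1ACT at 24 h and 10 d from very few counts, with 34 summed counts in α1ACT and 6 in vector at 24 h, and 22 in α1ACT and 5 in vector at 10 d. Maff, a small MAF factor of the hypoxia list, was lower in α1ACT at 6 h and 3 d, by log2 differences of -1.06 and -1.48, and higher at 24 h and 10 d, by 0.73 and 1.19.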
